A study of Sus scrofa with 96 samples.

Results

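Longissimus dorsi muscle of the pig was compared with the jejunum mucosa, kidney cortex and liver of the same set of animals. Each count file was assigned to the sample whose title, a plate well and number, is in the file's name, and libraries under 1000000 counts were dropped. This left 24 muscle libraries among 90 of 96, with 19 from jejunum, 24 from kidney and 23 from liver. All 24 muscle files are also recorded under a muscle sample, 12 of them under the other diet. The comparison pools both diets and asks which genes are read more, or less, in muscle than in the mean of the other tissues.

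The series describes 24 pigs (Sus scrofa), 12 on a semi-purified diet without xylose (control) and 12 on that diet with 8% D-xylose, a pentose sugar. The labels give no strain, age or sex. Tissue and diet make 8 groups with 12 samples in each, and the kept muscle libraries are 12 control and 12 xylose. The labels do not tie libraries to animals, so libraries of different tissues share animals without a known pairing, and p-values measure the spread between libraries only. Muscle RNA was isolated with a kit for fibrous tissue and the other RNA with a general kit of the same maker, and the muscle samples fill plate rows of their own, so tissue, kit and row cannot be told apart. Every library was made with a QuantSeq protocol, which reads the 3′ end of polyadenylated transcripts, so that a count needs no correction for transcript length.

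Skeletal muscle fibres are long multinucleate cells filled with sarcomeres, in which myosin filaments pull on actin filaments when calcium leaves the sarcoplasmic reticulum. The longissimus dorsi runs along the back and in pigs is built mostly of fast, glycolytic fibres, which draw ATP from phosphocreatine, glycogen and glycolysis. Slow fibres use their own isoforms of most contractile proteins and depend more on mitochondria.

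The muscle libraries held 2264421 to 5531709 counts (median 4280330). The 10 most abundant genes took 33.5% to 47.7% of the counts of a muscle library, against 8.38% to 33.6% in the other tissues. Because a few genes take so large a share, levels are given as CPM (counts divided by the library total and multiplied by 1000000) scaled by the trimmed mean of M-values (TMM), here called scaled CPM. The TMM factors were 0.444 to 0.775 in muscle and 0.778 to 1.77 elsewhere, so scaled CPM exceed plain CPM in muscle. No pair of muscle libraries agreed within sampling noise. One library, xylose replicate 7, stood apart from the other 23, with 4625 of 11511 tested genes at the highest or lowest level of the 24. Xylose replicate 12 had 2330 such genes and the other 22 libraries 325 to 1623. Numbers of calls without these libraries are given for the diet results and, without xylose replicate 7, for the tissue contrast. Some of the lowest and highest levels given below are those of these libraries, also where this is not said. The highest levels of ATP2A1, ACTN3 and MYBPC2 were in xylose replicate 7, and those of MYL2, MYH6 and MYH8 in xylose replicate 12.

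The label was borne out by all 5 markers of skeletal muscle. ACTA1 (ENSSSCG00000010190), the actin of the thin filament, stood at 139851 scaled CPM in the lowest muscle library, 341958 at the median and 501279 in the highest. In the other tissues it ran from 637 to 6051, so the groups did not overlap, and its log2 fold change against their mean was 7.73 ± 0.13 (SE; edgeR quasi-likelihood test, adjusted p = 8.30e-73). TNNT3, fast skeletal troponin T, had 24563, 33931 and 50339 scaled CPM as lowest, median and highest in muscle and at most 499 elsewhere. CKM, the cytosolic creatine kinase of muscle, had 7179, 10731 and 22174 against at most 175. PYGM, muscle glycogen phosphorylase, had the narrowest span of the 5, from 4804 through 6967 to 9053, against at most 94.1. ATP2A1, the fast calcium pump of the sarcoplasmic reticulum, was by far the least abundant of the 5, with 58.6, 143 and 563 scaled CPM against at most 1.97. No marker had overlapping groups. Together these genes took 10.8% to 28.4% of the counts of a muscle library, with the lowest value in xylose replicate 7 and the next at 17.5% in xylose replicate 12, against 0.106% to 0.860% elsewhere.

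**Figure D1:**
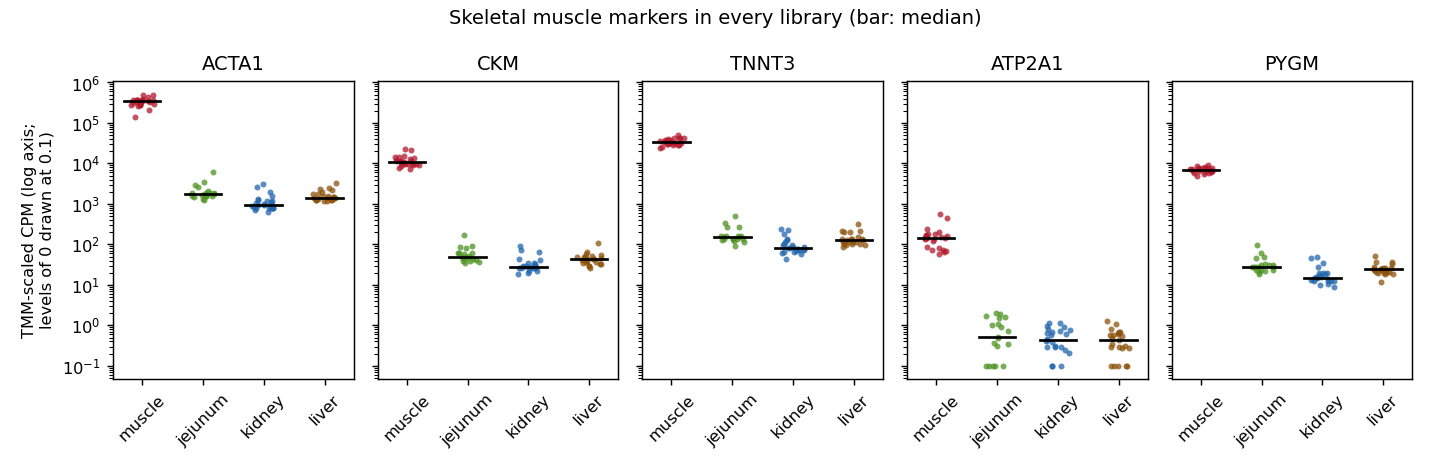
Scaled CPM (log axis) of 5 skeletal muscle markers in each of the 90 libraries, by tissue; points are libraries, bars are medians and levels of 0 are drawn at 0.1. For each gene all 24 muscle points lie above all 66 points of the other tissues.

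Of 11511 genes tested, 9507 (82.6%) passed an adjusted p of 0.05 against the mean of the other tissues, 4089 higher in muscle (35.5%) and 5418 lower (47.1%). A call was thus the rule and not the exception, and the size of a difference says more than its p. The counts given for each list below are to be read beside these shares. Within lane 7 alone 8828 genes passed and within lane 8 alone 8458. Genes above each of the other tissues in 3 separate contrasts numbered 2436 (21.2%), and those below each 2374 (20.6%). In 626 genes (5.44%) every muscle library was above every other library, and in 161 (1.40%) every muscle library was below. The median log2 fold change of all tested genes was -0.23. With library totals in place of TMM factors it was -1.27, a shift of -1.04, and the split became 1797 higher and 8597 lower. Fold changes are therefore relative to the scaling, and the sign of small positive ones depends on it. In bulk tissue, fewer cells of a type and less RNA per cell cannot be told apart.

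**Figure D2:**
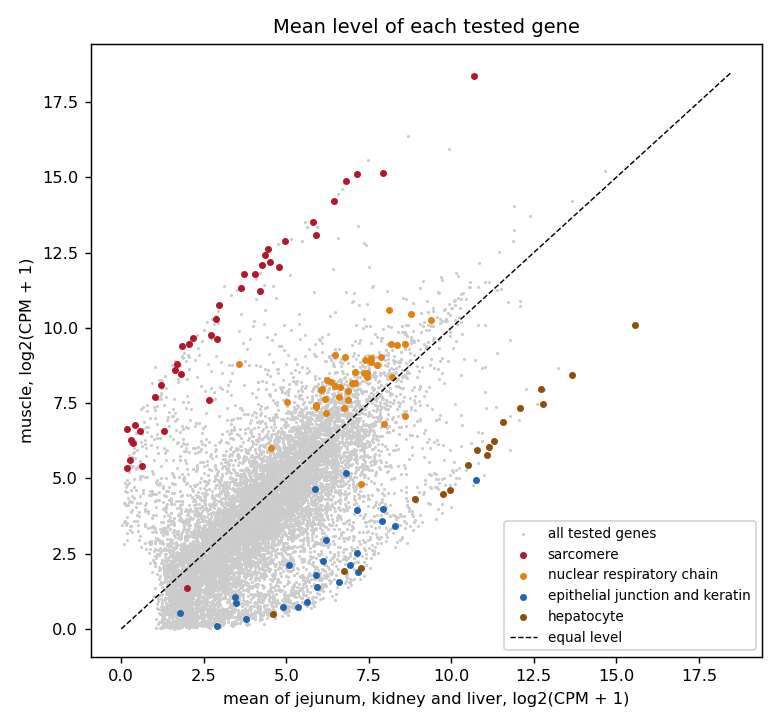
Mean scaled CPM of each tested gene in muscle against the mean of jejunum, kidney and liver, both as log2(CPM + 1); grey points are all 11511 tested genes, colours mark 4 lists and the dashed line is equality. Sarcomere genes form a band far above the line and hepatocyte and epithelial genes lie below it, while respiratory chain genes lie just above it with TMM scaling, by a median of 1.45 on the log2 scale, or 0.42 without scaling.

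The contractile apparatus set muscle apart. Of 54 listed genes of the sarcomere, 40 were tested, 39 were higher in muscle and above each other tissue, and the median log2 fold change was 7.83 beside -0.23 for all tested genes. The list took 20.9% to 36.1% of the counts of a muscle library and 0.151% to 1.11% elsewhere. Listed genes that were not tested had no symbol among the counted genes or too few counts, and are not analysed here, among them the fast and slow myosin heavy chains MYH1, MYH2, MYH4 and MYH7. TPM1, the tropomyosin that lies along the thin filament, had 22742, 34259 and 49279 scaled CPM as lowest, median and highest in muscle. Its level in the other tissues was 135 to 576, the log2 fold change 7.23 ± 0.10 (adjusted p = 1.05e-81). TNNC2, the calcium sensor of fast fibres, had 17459, 29367 and 43167 scaled CPM and rose by 8.14 ± 0.14 (adjusted p = 3.97e-74). Both thin-filament regulators were among the 10 most abundant named genes of muscle. MYL1, an essential myosin light chain, ran from 5318 through 19959 to 27847, with its lowest level in xylose replicate 12. NEB, the giant ruler protein of the thin filament, was steadier, from 5116 through 7348 to 11990.3. ACTN2, the alpha-actinin of the Z-disc, ran from 443 through 641 to 1401. All 3 were above every other library. The exception was TMOD4, a tropomodulin that caps thin filaments, at 1.36 scaled CPM at the median in muscle and 6.28 ± 3.71 in jejunum (SD, n = 19). Its log2 fold change of -0.51 ± 0.30 did not pass (adjusted p = 0.106). Without scaling it was -1.54 and passed as lower (adjusted p = 1.94e-06). Only 3′ ends were read and the annotation is not given, so whether reads of TMOD4 were missed was not tested.

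Fast and slow isoforms of the contractile proteins were both far above the other tissues, and the fast list took the larger share of counts. The heavy chains MYH1, MYH2, MYH4 and MYH7 were not tested, and the calcium pumps went the other way, as given below. Of 11 tested fast-fibre genes 10 were higher, with a median log2 fold change of 7.99, and all 8 tested slow-fibre genes were higher, with a median of 7.93. The fast list took 4.35% to 6.92% of muscle counts and the slow list 0.239% to 0.849%. TNNI2, the fast inhibitory troponin, had 2757, 6083 and 12830.0 scaled CPM in muscle, against at most 73.6 elsewhere (log2 fold change 8.28 ± 0.15, adjusted p = 2.57e-72). TNNI1, its slow counterpart, had 157, 367 and 758 against at most 6.83 (7.65 ± 0.14, adjusted p = 8.73e-71). In every muscle library the fast troponin was therefore the more abundant, since its lowest level lies above the highest of the slow one. MYBPC2, fast myosin-binding protein C, ran from 3588 to 11226 scaled CPM around a median of 5190.1. MYOZ1, a Z-disc protein of fast fibres that binds calcineurin, ran from 2836 to 6484 around 4454. ACTN3, the alpha-actinin found only in fast fibres, was low for a fast gene, at 28.1, 84.2 and 388 scaled CPM, yet had one of the highest log2 fold changes, 8.46 ± 0.21 (adjusted p = 1.13e-59). CASQ1, the calcium store protein of fast fibres, ran from 63.1 through 114 to 355.

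Among slow-fibre genes, MYL2, the regulatory light chain of slow and cardiac myosin, was the most abundant of those named. It had 1939, 2841 and 10044 scaled CPM in muscle and at most 63.0 elsewhere, a log2 fold change of 8.29 ± 0.16 (adjusted p = 1.14e-68). TNNT1, slow troponin T, ran from 1050.4 through 2178 to 5245, and TNNC1, slow and cardiac troponin C, from 333 through 606 to 1238. Neither overlapped with another tissue. MYL3, a slow essential light chain, had the highest fold change of all tested genes, 9.16 ± 0.20 on the log2 scale (adjusted p = 1.02e-64), on 5893 counts in muscle against 9, 15 and 10 summed over jejunum, kidney and liver. ATP2A2, the calcium pump of slow fibres and of most other cells, was raised least, with 182, 297 and 411 scaled CPM against 31.1 to 167 elsewhere (2.09 ± 0.08, adjusted p = 7.73e-45). It was nonetheless above every other library. At the median ATP2A2 also stood above ATP2A1, the fast pump, which had 58.6, 143 and 563 scaled CPM, with overlapping ranges.

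Isoforms named for developing or cardiac muscle were also read. All 6 tested members passed as higher and 5 were above each other tissue. The gene annotated MYH6, in heart an alpha myosin heavy chain, had 2062, 3602 and 18975 scaled CPM, and that annotated MYH8, a perinatal heavy chain, 21.4, 253 and 735. Myosin heavy chain genes are near-copies of each other, and how reads shared between them were counted is not stated in the labels, so these levels are uncertain by gene. ACTC1, cardiac actin, had 30.9, 107 and 552 scaled CPM, far below ACTA1. MYH3, embryonic heavy chain, had a median of 29.6 and TNNT2, cardiac troponin T, of 19.3, and their lowest muscle libraries, at 6.74 and 0.370, overlapped with other tissues. MYL4, an atrial and embryonic light chain, had a median of 0.506 and passed with 0.99 ± 0.36 (adjusted p = 0.00843). That call was lost in lane 8 alone (0.82, adjusted p = 0.12) and without scaling (0.07, adjusted p = 0.842). It was also lost with a block by plate position (0.50, adjusted p = 0.218).

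The machinery that turns a nerve impulse into calcium release was raised throughout. All 18 tested genes of excitation-contraction coupling were above each other tissue and in all 18 every muscle library was above every other, with a median log2 fold change of 7.39. SLN, sarcolipin, which slows the calcium pump, was the most abundant of those named, at 2313, 3441 and 9286 scaled CPM (7.74 ± 0.14, adjusted p = 5.27e-72). TRDN, triadin, which ties the calcium release channel to calsequestrin, had 1137, 2156 and 3535 (7.95 ± 0.20, adjusted p = 8.58e-59). JPH1, junctophilin, which holds the reticulum against the transverse tubule, had 332, 514 and 767. These 3 genes of the reticulum varied by a factor of under 5 between muscle libraries. CACNA1S, the voltage sensor of the transverse tubule, was much lower at 18.3, 56.9 and 116 scaled CPM, with a log2 fold change of 8.08 ± 0.19 (adjusted p = 5.18e-61). SCN4A, the sodium channel of the muscle action potential, ran from 101.3 through 246 to 1442, a wider span than the others. BIN1, which shapes transverse tubules, was also read elsewhere, at 7.78 to 38.8 against 498 to 1569 in muscle.

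Of 13 listed genes of the neuromuscular junction 4 were tested and 2 passed as higher, or 1 higher and 3 lower without scaling. Among all tested genes 35.5% passed as higher with scaling. CHRNA1, a subunit of the acetylcholine receptor, had 8.42, 52.3 and 377 scaled CPM in muscle and at most 5.29 elsewhere (6.92 ± 0.24, adjusted p = 9.88e-48). PRKAR1A, a regulatory subunit of protein kinase A found in most cells, passed with 0.72 ± 0.11 on the log2 scale (adjusted p = 2.66e-09), but was at -0.31 without scaling. LRP4, the receptor for agrin, had a log2 fold change of -0.41 ± 0.21 and did not pass (adjusted p = 0.0674). It passed as lower in lane 8 alone (-0.71, adjusted p = 0.0224) and without scaling (-1.41, adjusted p = 2.22e-08). With a block by plate position it passed as lower too (-0.46, adjusted p = 0.0391).

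In the membrane skeleton around dystrophin 14 of 16 tested genes passed as higher and 2 as lower, or 12 and 3 without scaling. With scaling, all tested genes gave 35.5% and 47.1%. DMD, dystrophin, which links actin to the membrane, was steady at 156, 210.2 and 254 scaled CPM and at most 33.3 elsewhere (3.73 ± 0.09, adjusted p = 9.29e-60). UTRN, utrophin, its relative in other cells, fell, with 14.6, 32.2 and 50.0 in muscle against 16.6 to 139, ranges that overlapped (-0.58 ± 0.12, adjusted p = 6.53e-06). ANK1, an ankyrin with a small form in the reticulum of muscle, was the most abundant named member at 1714, 2377 and 3581 (7.93 ± 0.12, adjusted p = 9.23e-78). SGCA, a sarcoglycan, had a median of 74.7, DYSF, dysferlin, which reseals torn membrane, 112, and CAPN3, the muscle calpain, 47.8 scaled CPM. None of these 3 overlapped with the other tissues.

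Fuel genes split by isoform. In the high-energy phosphate system, 6 of 10 tested genes of creatine and adenine nucleotide metabolism were higher and 4 lower. Over all tested genes 35.5% were higher and 47.1% lower. CKMT2, the creatine kinase of muscle mitochondria, had 123, 1171 and 2102 scaled CPM and at most 20.6 elsewhere (7.45 ± 0.15, adjusted p = 2.62e-68). AK1, adenylate kinase, had 1104, 1940.0 and 3396 (7.16 ± 0.10, adjusted p = 2.47e-79). Of the purine nucleotide cycle, AMPD1 had a median of 675 and ADSS1 of 1106, neither overlapping with the other tissues. GATM, which makes the creatine precursor in kidney and liver, fell, with a median of 27.2 in muscle against 693 in kidney and 1219 in liver (-3.20 ± 0.21, adjusted p = 4.48e-26), and it overlapped with jejunum, which had 28.8.

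For glycogen, 9 of 16 tested genes were higher and 7 lower, or 7 and 7 without scaling. The shares over all tested genes were 35.5% and 47.1% with scaling. PPP1R3A, the muscle subunit that brings phosphatase to glycogen, had 267, 385 and 703 scaled CPM, against at most 6.89 elsewhere (7.77 ± 0.13, adjusted p = 4.30e-73). PHKG1, the catalytic subunit of muscle phosphorylase kinase, ran from 159.9 through 379 to 1256. Both genes stood above every other library, but GYS1, the glycogen synthase known as the muscle form, did not. It had 335, 478 and 1042 scaled CPM in muscle, against medians of 226 in jejunum, 1035 in kidney and 1240.1 in liver. Its log2 fold change was -0.42 ± 0.14 (adjusted p = 0.00476), and that call was lost in lane 8 alone (-0.31, adjusted p = 0.128) and with all 96 libraries (-0.21, adjusted p = 0.178). GYS2, the liver form, had a median of 3.34 in muscle and 589 in liver.

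Glycolysis took 6.39% to 15.3% of muscle counts, the highest value again in xylose replicate 7 and the next 11.1%, against 0.371% to 2.70% in the other tissues. Of 22 tested genes 14 were higher, 5 lower and 3 neither, or 13 higher and 8 lower without scaling. The shares over all tested genes were 35.5% higher and 47.1% lower with scaling. GAPDH, often used as a reference gene, was among the 10 most abundant named genes, with 29808, 57019 and 157822 scaled CPM in muscle and 453 to 2318 elsewhere (6.06 ± 0.11, adjusted p = 1.53e-72). ENO3, muscle enolase, had 28805, 48090.0 and 77198 (8.14 ± 0.14, adjusted p = 1.03e-73). PGAM2, muscle phosphoglycerate mutase, had 4751, 9867 and 19303 (7.51 ± 0.15, adjusted p = 1.74e-68). All 3 were above every other library, and the highest GAPDH level was in xylose replicate 7, with 104768 scaled CPM as the highest of the other 23. GAPDH is known for many processed copies in mammalian genomes, and how reads shared with copies were counted is not stated in the labels. ALDOA, the muscle aldolase, spanned 3581 to 29242 around a median of 6781. PFKM, muscle phosphofructokinase, spanned 416 to 2002 around 1429.7, and LDHA, the lactate dehydrogenase subunit of glycolytic tissue, 1431 to 6332 around 4317.

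Of 6 tested genes listed for gluconeogenesis 1 was higher and 5 lower, or 0 and 5 without scaling. With scaling, all tested genes gave 35.5% and 47.1%. The list held FBP1, which fell (-4.42), but not FBP2, the fructose bisphosphatase of muscle, which rose (6.11). PCK1, the enzyme that commits carbon to glucose, had 18.3, 28.9 and 53.4 scaled CPM in muscle and 77.1 to 4449 elsewhere, without overlap (-4.76 ± 0.27, adjusted p = 1.09e-30). G6PC1, which releases free glucose, had 0.882, 5.96 and 55.0 against 20.8 to 1984 (-4.38 ± 0.24, adjusted p = 1.33e-31). Its highest muscle level was in xylose replicate 7, and the other 23 muscle libraries reached 17.2, below every other tissue. The listed gene that passed as higher was SLC37A4, the glucose 6-phosphate carrier, at 0.91 ± 0.08 (adjusted p = 8.84e-18), or -0.15 without scaling.

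Many of these steps have one gene used in muscle and another used in other tissues. In 16 such pairs, which were chosen after the values were seen, the first gene's percent of the pair's counts was computed in each library. The first gene was higher and the second lower in 15 of 16 pairs, and in 13 of 16 the percent in every muscle library was above that in every other library. The fall of ENO1, the second gene of the enolase pair, was lost in lane 7 alone (-0.14, adjusted p = 0.36) and with all 96 libraries (-0.15, adjusted p = 0.196). For PYGM and PYGL, the liver glycogen phosphorylase, the median was 99.7% in muscle, 44.1% in jejunum, 39.5% in kidney and 14.0% in liver. For FBP2 and FBP1, the fructose bisphosphatases of muscle and liver, it was 95.5% in muscle against 30.8%, 0.129% and 0.543% in jejunum, kidney and liver. The PYGM reads outside muscle were 0.489%, 0.269% and 0.363% of its muscle level in jejunum, kidney and liver, so the percents there need not reflect expression in those tissues. The same limit holds for other first genes, such as CKM (0.514%, 0.293% and 0.383%) and ENO3 (0.469%, 0.268% and 0.358%). In the PYGM and FBP2 pairs every muscle library was above 90% for the first gene. For SLC2A4, the insulin-responsive glucose transporter, and SLC2A2, the transporter of liver and gut, it was 97.5% in muscle against 0.407%, 7.04% and 1.79%. COX6A2, a cytochrome oxidase subunit of heart and muscle, took 60.9% to 97.1% of its pair with COX6A1 in muscle, and at most 49.5% elsewhere. CPT1B, the muscle form of the enzyme that admits fatty acids to mitochondria, took 1.15% to 70.1% of its pair with CPT1A, with a median of 38.0%, so CPT1A gave the larger part of the counts in the median muscle library. The pairs whose groups overlapped were CPT1B with CPT1A, BCAT2 with BCAT1 and GYS1 with GYS2.

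**Figure D3:**
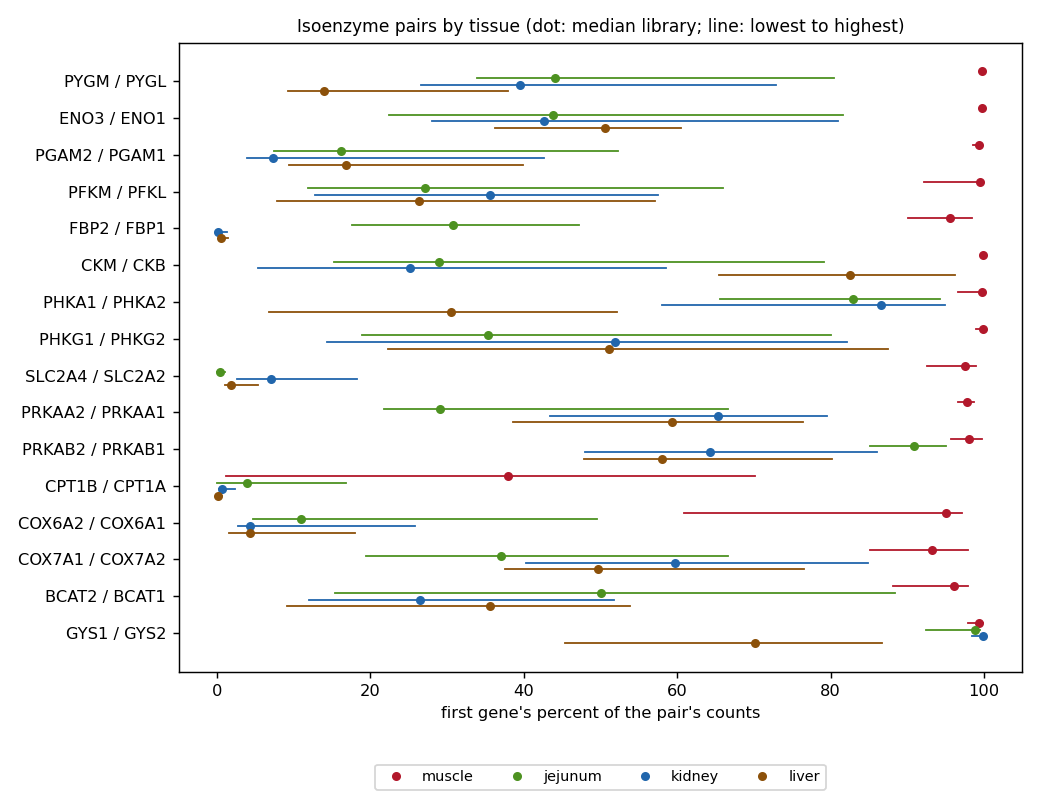
Percent of the counts of a gene pair that fell on the first gene, by tissue; dots are the median library and lines run from the lowest to the highest of 24 muscle, 19 jejunum, 24 kidney and 23 liver libraries. Muscle lies apart near 100% for most pairs, but its range overlaps with other tissues for CPT1B, BCAT2 and GYS1. Percents outside muscle need not reflect expression there.

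Genes of glucose uptake and energy sensing were mixed, with 9 of 17 higher and 6 lower, or 7 and 8 without scaling. With scaling, the shares over all tested genes were 35.5% and 47.1%. SLC2A4 had 91.9, 149 and 244 scaled CPM and at most 16.9 elsewhere (5.90 ± 0.13, adjusted p = 8.54e-65). PRKAG3, the subunit of AMP-activated kinase specific to skeletal muscle and known in pigs for its effect on muscle glycogen, had 56.0, 110.4 and 178 against at most 3.40 (6.65 ± 0.16, adjusted p = 8.40e-61). PRKAA2, a catalytic subunit of that kinase, had a median of 553 (4.22 ± 0.09, adjusted p = 1.22e-64). IRS1, which relays the insulin signal, had a median of 253 against at most 39.3 in any other library. All 4 were above every other library.

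Mitochondrial genes had much smaller fold changes than contractile ones. Of 41 tested nuclear genes of the respiratory chain 37 were higher and 3 lower, with a median log2 fold change of 1.45, but 22 and 6 with a median of 0.42 without scaling. All 13 mitochondrially encoded genes passed as higher, with a median of 1.06, but 2 higher and 2 lower without scaling. As a share of counts the latter took 4.18% to 8.65% in muscle, within the range of 2.39% to 28.2% elsewhere. ATP6, a subunit of ATP synthase, had 23758, 35764 and 64694 scaled CPM in muscle and 10456 to 89996 elsewhere. It was 0.63 ± 0.11 on the log2 scale (adjusted p = 5.02e-07), -0.46 without scaling, and did not pass in lane 7 alone (0.29, adjusted p = 0.154). COX3, a cytochrome oxidase subunit, was similar, at 0.61 ± 0.13 (adjusted p = 9.48e-06), -0.47 without scaling and 0.40 in lane 7 alone (adjusted p = 0.068). ND4, a subunit of complex I, had 5776, 8672 and 18491 scaled CPM against 812 to 11632, and overlapped too (1.37 ± 0.14, adjusted p = 4.92e-16, or 0.27 and 0.0597 without scaling). Isoforms specific to heart and muscle stood out within the chain. COX6A2 was at 89.2, 454 and 627 scaled CPM (5.42 ± 0.12, adjusted p = 4.48e-64) and COX7A1 at 917, 1464 and 2987 (2.86 ± 0.10, adjusted p = 3.40e-48). ATP5MC1, a ring subunit of ATP synthase, had a median of 1418 scaled CPM (1.77 ± 0.10, adjusted p = 4.47e-30).

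In the tricarboxylic acid cycle 16 of 22 tested genes were higher and 4 lower, or 8 and 10 without scaling. Among all tested genes 35.5% were higher and 47.1% lower with scaling. CS, citrate synthase, had 513, 729 and 1341 scaled CPM in muscle, above every kidney and liver library (at most 323 and 176) but within the range of jejunum, whose median was 809. IDH1, the cytosolic isocitrate dehydrogenase, was below every other library, with 22.5, 30.7 and 42.4 against 64.2 to 599 (-3.20 ± 0.11, adjusted p = 7.68e-46). SDHA, a subunit of succinate dehydrogenase, had a log2 fold change of 0.10 ± 0.12 and did not pass (adjusted p = 0.42). It was -0.96 without scaling (adjusted p = 1.34e-10) and 0.32 with all 96 libraries (adjusted p = 0.0231).

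For fatty acids 10 of 23 tested genes were higher and 8 lower, or 5 and 16 without scaling. With scaling, 35.5% of all tested genes were higher and 47.1% lower. LPL, which frees fatty acids from lipoproteins at the capillary wall, had 95.8, 131 and 226 scaled CPM against at most 44.5 elsewhere (4.38 ± 0.13, adjusted p = 5.56e-53). FABP3, the fatty acid carrier of heart and muscle, had 11.3, 29.2 and 161 and overlapped with kidney, at a median of 27.7 (2.997 ± 0.19 on the log2 scale, adjusted p = 4.45e-27). CPT1A, the liver form of carnitine palmitoyltransferase, fell to a median of 25.1 against 231 in liver (-2.11 ± 0.17, adjusted p = 1.29e-20).

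**Figure D4:**
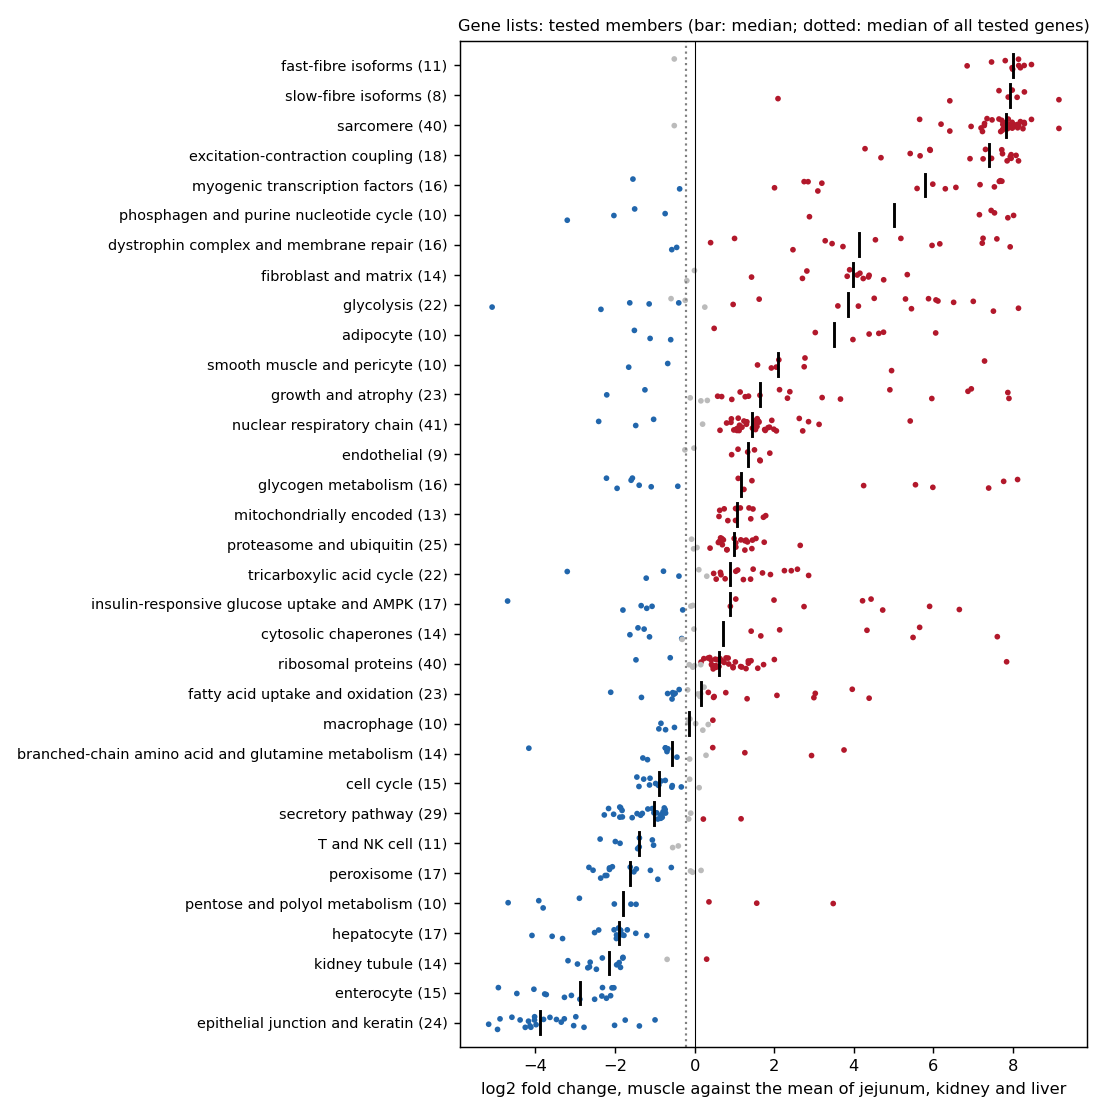
Log2 fold change of muscle against the mean of jejunum, kidney and liver for the tested members of each list with 8 or more (number in brackets); red and blue passed as higher and lower, grey did not pass, bars are list medians and the dotted line is the median of all tested genes, -0.23. Sarcomere and fibre-type lists have medians near 8 and the epithelial junction and keratin list has the lowest median, -3.89, while the medians of 7 lists between 0 and 1.06, from fatty acid oxidation to the mitochondrially encoded genes, fall below 0 without TMM scaling.

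Transcription factors of muscle were mostly raised. Of 16 tested myogenic transcription factors 14 were higher and 2 lower. MYOG, myogenin, which drives the differentiation of myoblasts, is one of the myogenic helix-loop-helix factors. It had 156, 503 and 894 scaled CPM against at most 12.1 (7.68 ± 0.17, adjusted p = 1.98e-64). MYF6, the factor that dominates in adult fibres of rodents, had 47.7, 202 and 362 (7.72 ± 0.17, adjusted p = 1.19e-64), and MYOD1 had 24.8, 57.1 and 99.0 (7.66 ± 0.18, adjusted p = 3.02e-62). At the medians the order was MYOG, MYF6 and MYOD1, but the ranges of MYOG and MYF6 overlapped, as did those of MYF6 and MYOD1. MEF2C, a partner of these factors, had 413, 607 and 893 scaled CPM, above every other library. PPARGC1A, a coactivator of mitochondrial genes, fell, with 10.5, 29.7 and 96.6 scaled CPM against 35.0 to 219 (-1.55 ± 0.13, adjusted p = 8.16e-20).

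Genes of growth and wasting numbered 18 higher and 2 lower of 23 tested, or 12 and 7 without scaling. Among all tested genes 35.5% were higher and 47.1% lower with scaling. MSTN, myostatin, the secreted brake on muscle growth, had 8.69, 20.5 and 58.5 scaled CPM and at most 1.52 elsewhere (6.87 ± 0.19, adjusted p = 2.03e-55). FST, follistatin, which binds it, had 9.996, 23.6 and 63.2 (4.91 ± 0.19, adjusted p = 4.12e-43). The ligand and its inhibitor thus stood at overlapping levels. Of the ubiquitin ligases of muscle wasting, TRIM63 had 227, 336 and 514 (7.90 ± 0.14, adjusted p = 5.63e-72) and FBXO32 84.2, 242 and 453 (3.66 ± 0.11, adjusted p = 9.54e-54). FBXO40, which in mice turns over IRS1, had a median of 62.7. IGFBP5, an IGF-binding protein, was 2.39 ± 0.09 against the mean of the other tissues (adjusted p = 2.47e-44) although its median was higher in kidney, 309, than in muscle, 178.

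Of 14 tested genes of branched-chain amino acid and glutamine metabolism 4 were higher and 8 lower, shares near those over all tested genes, 35.5% and 47.1%. BCAT2, which begins the breakdown of branched-chain amino acids, had 57.1, 83.9 and 154 scaled CPM against at most 23.5 (3.75 ± 0.11, adjusted p = 5.56e-52), and BCKDK, which restrains the next step, had 79.1, 136 and 175 (2.94 ± 0.10, adjusted p = 4.85e-46). GOT2, the mitochondrial aspartate aminotransferase, was above every other library as well, with a median of 618 (1.26 ± 0.08, adjusted p = 3.48e-28). GPT2, the mitochondrial alanine aminotransferase, fell, with a median of 13.1 against 853 in kidney (-4.17 ± 0.19, adjusted p = 2.62e-37).

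Genes that handle pentoses and polyols, among them those through which xylose can be used, were mostly lower: 7 of 10 tested, with 3 higher. Over all tested genes 47.1% were lower and 35.5% higher. XYLB, xylulokinase, had 0.454, 2.24 and 14.6 scaled CPM in muscle and 24.4 to 222 elsewhere, without overlap (-4.69 ± 0.21, adjusted p = 1.62e-37). SORD, sorbitol dehydrogenase, had 27.2, 38.9 and 253 against a liver median of 1864 (-3.81 ± 0.15, adjusted p = 3.68e-42). DCXR, which reduces xylulose, had a median of 4.55 (-1.60 ± 0.21, adjusted p = 5.15e-11) and KHK, ketohexokinase, of 9.47 (-3.92 ± 0.14, adjusted p = 5.72e-47). For these 4 genes the muscle median was below the median of each other tissue. XYLB, SORD and KHK had their highest muscle level in xylose replicate 7, and the other 23 libraries reached 6.34, 60.2 and 15.8. AKR1B1, aldose reductase, the first enzyme of the polyol pathway, went the other way, with 19.1, 64.1 and 92.8 scaled CPM against 0.338 to 33.9 (3.48 ± 0.16, adjusted p = 1.58e-36).

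Markers of the other cell types in muscle were also read. Of the matrix and fibroblast list 12 of 14 tested genes were higher, and it took 0.202% to 0.964% of muscle counts. COL1A1, a chain of collagen I, had 1073, 2079 and 7834 scaled CPM (4.75 ± 0.14, adjusted p = 5.43e-54), and DCN, decorin, 339.6, 728 and 1027 (4.38 ± 0.10, adjusted p = 4.20e-63). FN1, fibronectin, which liver makes for plasma, had a median of 4.39 and did not pass (-0.01 ± 0.50, adjusted p = 0.992). Without xylose replicate 7 it was -0.62 and passed as lower (adjusted p = 0.0164). Of 10 adipocyte genes 7 were higher and 3 lower, with RBP4 lowest at -1.51, or 6 and 4 without scaling. The shares over all tested genes were 35.5% and 47.1% with scaling. The list took 0.103% to 0.208% of counts in muscle and 0.682% to 1.80% in liver. ADIPOQ, adiponectin, ran from 1.36 through 11.3 to 181 and FABP4 from 8.98 through 90.8 to 269, a wide span between libraries. Of 9 endothelial genes 7 passed as higher than the mean, or 5 without scaling, and 0 were above each tissue. Among all tested genes 35.5% passed as higher with scaling. CDH15, a cadherin of satellite cells, the stem cells of muscle, had 32.6, 62.2 and 248 (6.95 ± 0.18, adjusted p = 3.02e-58). Only 3 of 9 listed satellite cell genes were tested. Of 11 T and NK cell genes 9 fell against the mean and 0 rose, but only 1 was below each other tissue. At the median the list took 0.00147% of counts in muscle, 0.0549% in jejunum, 0.00365% in kidney and 0.00514% in liver. CD3E stood at 0, 0.669 and 3.02 scaled CPM in muscle. Of 10 macrophage genes 1 rose and 4 fell, or 0 and 10 without scaling, where all tested genes with scaling gave 35.5% and 47.1%.

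Genes of epithelia were low in muscle. All 24 tested genes of epithelial junctions and keratins fell, 18 of them to below each other tissue, with a median log2 fold change of -3.89. EPCAM, an adhesion protein of epithelia, had 1.07, 2.69 and 4.78 scaled CPM against medians of 314 in jejunum and 76.1 in kidney (-4.12 ± 0.17, adjusted p = 1.09e-40). CLDN3, a tight junction claudin, had 0, 0.715 and 3.37 and was below every other library (-5.18 ± 0.20, adjusted p = 3.41e-43). All 17 tested hepatocyte genes and all 15 enterocyte genes fell against the mean, as did 12 of 14 kidney tubule genes. Each of these lists marks a tissue within that mean, so such a fall was to be had from that tissue alone. Below each other tissue were 0 hepatocyte, 4 enterocyte and 1 kidney tubule genes. ALB, albumin, was still read at 608, 889 and 3498 scaled CPM in muscle, with a liver median of 163512. In the muscle libraries other than xylose replicate 7 the 17 hepatocyte genes stood at a median of 0.691% of their liver level. Whether reads moved between libraries was not tested, and so low a level is not given here as expression in muscle. FABP2, the fatty acid carrier of enterocytes, had a median of 13.3 in muscle, 7.26 in kidney, 12.5 in liver and 3310.3 in jejunum, so only jejunum stood high.

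Among the genes with the deepest fall of those read in all 3 other tissues were RAB17, AGMAT, ABCC2, SDSL, HNF4A, ABAT, GBA3, FGFR3 and MAL2, with log2 fold changes from -5.27 to -4.89. In each of them every muscle library was below every other library. HNF4A, a transcription factor of liver, kidney and gut epithelium, had 4.27, 8.73 and 38.7 scaled CPM in muscle and 113 to 647 elsewhere (-5.15 ± 0.17, adjusted p = 1.41e-49). ABCC2, a pump of the apical membrane, had 0.729, 2.67 and 20.2 against 37.6 to 490.4 (-5.17 ± 0.23, adjusted p = 3.42e-38). RAB17 and MAL2 both serve traffic to the apical membrane of epithelial cells. RAB17 had 1.48, 3.66 and 27.5 in muscle (-5.27 ± 0.21, adjusted p = 7.51e-42). AGMAT, agmatinase, and ABAT, which breaks down GABA, belong to mitochondrial amine metabolism. AGMAT had 5.66, 9.79 and 28.6 against 141 to 918 (-5.18 ± 0.15, adjusted p = 3.22e-53), and ABAT a median of 2.82 (-5.09 ± 0.15, adjusted p = 3.39e-53). The highest muscle level of HNF4A, ABCC2, RAB17 and AGMAT was in each case that of xylose replicate 7, and the other 23 libraries reached 14.5, 6.79, 6.39 and 14.9. FGFR3, a growth factor receptor, had a median of 4.84, GBA3, a cytosolic glucosidase, of 3.96, and SDSL, a serine dehydratase relative, of 2.37 scaled CPM.

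The secretory pathway and peroxisomes were also lower. Of 29 secretory pathway genes 25 fell and 2 rose, with a median of -1.02. CALR, a calcium-binding chaperone of the endoplasmic reticulum, had 110.0, 177 and 319.9 scaled CPM against 317 to 1290.4 (-1.82 ± 0.11, adjusted p = 7.78e-30), and PDIA4, a disulfide isomerase, 31.1, 44.7 and 66.7 against 98.3 to 1056 (-2.27 ± 0.11, adjusted p = 1.18e-35). Of 17 peroxisome genes 14 fell and none rose, with CAT, catalase, at a median of 229.9 against 4575 in liver (-2.21 ± 0.14, adjusted p = 1.30e-26). Of 15 cell cycle genes 13 fell against the mean, but 0 were below each tissue: TOP2A, a topoisomerase of dividing cells, had a median of 14.5 in muscle, 10.7 in kidney, 11.1 in liver and 116 in jejunum, whose crypts divide.

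Housekeeping lists gave smaller differences whose sign rests on the scaling. Of 40 ribosomal and elongation factor genes 34 were higher and 2 lower with a median of 0.62, but 7 and 26 without scaling. Of 25 proteasome and ubiquitin genes 22 were higher and 0 lower, but 8 and 8 without scaling. EEF1A2, the elongation factor form of muscle and neurons, was the exception in size, with 1550.4, 2536 and 4932 scaled CPM against at most 40.99 (7.84 ± 0.12, adjusted p = 5.22e-78). Chaperones divided, 7 higher and 5 lower of 14, or 7 and 7 without scaling, where all tested genes with scaling gave 35.5% and 47.1%. HSPB3, a small heat shock protein of muscle, had 38.1, 58.8 and 85.4 (7.61 ± 0.15, adjusted p = 6.78e-69), and UNC45B, which folds myosin, 130.3, 182 and 530.4 (5.65 ± 0.11, adjusted p = 7.11e-67). HSPD1, the chaperonin of mitochondria, fell to a median of 115 (-1.42 ± 0.08, adjusted p = 4.88e-30). TPT1, a translationally controlled protein found in most cells, was among the 10 most abundant named genes, at 7662, 15120.0 and 32280.4 scaled CPM (2.23 ± 0.13, adjusted p = 1.26e-30).

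The 15 named genes with the highest fold changes also included DHRS7C, a reductase of the sarcoplasmic reticulum, MYOZ3, a Z-disc protein, and HHATL, an acyltransferase relative. DHRS7C led the rule with 68.5, 389 and 726 scaled CPM against at most 3.32 (8.72 ± 0.16, adjusted p = 4.39e-70). One gene with no symbol in the table used, ENSSSCG00000018003, was second in level to ACTA1 with 43397, 69914 and 168194 scaled CPM.

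Fold changes of muscle genes ended at a similar height whatever their level. Of 40 sarcomere genes 34 had a log2 fold change between 7 and 8.5, and 3 of the 11511 tested genes exceeded 8.5. A set of 47 genes had 1000 or more scaled CPM in muscle and a log2 fold change of 7 or more. Their level elsewhere was a small percent of that in muscle, which the threshold of 7 itself limits from above. The median was 0.555% in jejunum, 0.313% in kidney and 0.433% in liver. The middle 90% of genes ran from 0.467% to 0.720%, 0.246% to 0.900% and 0.322% to 0.680%. Over the 40 tested sarcomere genes, not chosen by fold change, it ran from 0.395% to 2.12%, 0.165% to 1.71% and 0.303% to 1.14%. ACTA1, the most abundant, had 2108 ± 1102 scaled CPM in jejunum (SD, n = 19), 1162 ± 592 in kidney (n = 24) and 1629 ± 511 in liver (n = 23). Whether reads moved between libraries that shared a lane was not tested. A low level of such a gene elsewhere is not given here as expression in that tissue.

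The spread between the 24 muscle libraries differed by gene. Over the 2512 genes with a mean of 50 or more scaled CPM in muscle, the median SD of log2(CPM + 1) between libraries was 0.41. It was 0.46 for sarcomere genes, 0.34 for ribosomal genes and 0.98 for the 3 developmental and cardiac isoforms at that level. Among the 10 most variable were CISH, an inhibitor of cytokine signalling, with 4.999, 39.3 and 262 scaled CPM (SD 1.48), and PDK4, which blocks glucose oxidation in fasting, with 14.1, 112 and 662 (SD 1.32). Matrix genes were also among them: THBS2 had 11.2, 27.5 and 287, THBS4 3.86, 42.1 and 274, and SPARC 26.9, 285 and 863. The other variable genes were CHRNA1, ATP5MC3, GSE1, MYL6 and PROC. ATP5MC3, a ring subunit of ATP synthase, had 20.2, 365 and 769.5 (SD 1.34). GSE1, a nuclear coiled-coil protein, had 12.3, 161 and 392. The gene annotated MYL6 (ENSSSCG00000039506) had 44.1, 148 and 1021 in muscle and at most 5.70 elsewhere. PROC, protein C of the clotting system, was high in xylose replicate 7: its SD was 1.24 with that library and 0.41 without it.

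Fibre type marks also spread. The slow list stood at 3.55% of the fast list in the lowest library, 6.57% at the median and 15.7% in the highest. In the 12 control libraries the range was 4.50% to 15.7% and in the 12 xylose libraries 3.55% to 15.3%, so the diets overlapped throughout. The 5 highest values were those of control replicates 7, 8 and 10 and xylose replicates 7 and 12, all in lane 8. The highest value was 15.7% in lane 8 and 10.1% in lane 7, and the medians of the lanes were 6.75% and 6.57%. Developmental and cardiac isoforms took 0.130% to 0.967% of counts, with the highest share in xylose replicate 12 and 0.521% in xylose replicate 7.

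**Figure D5:**
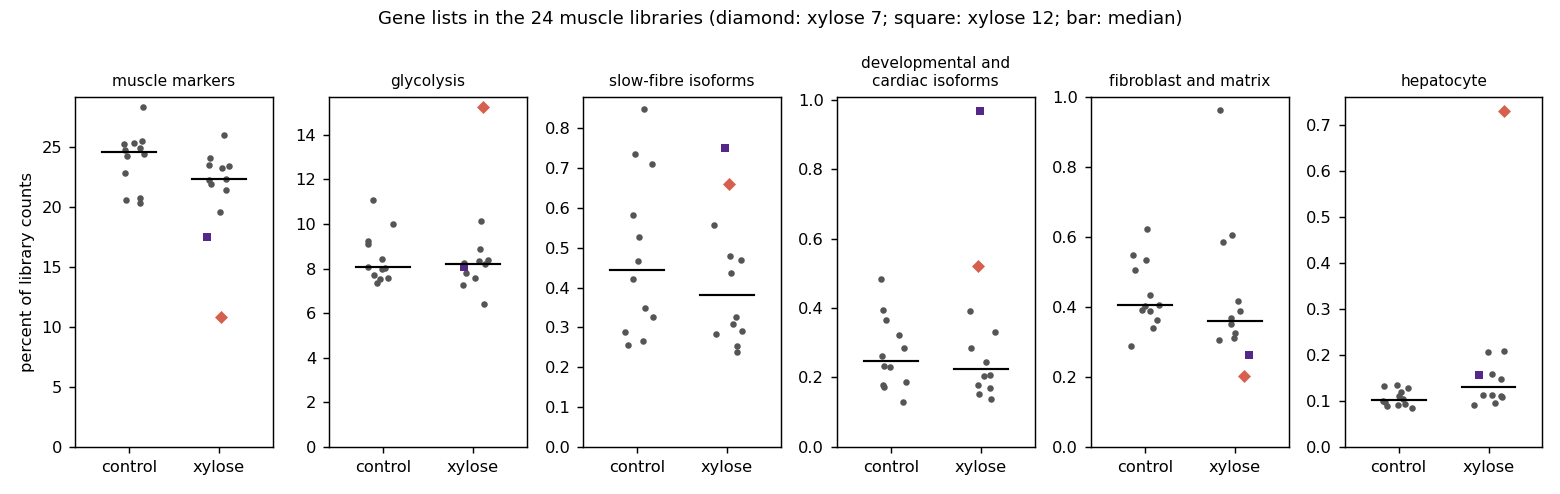
Percent of library counts taken by 6 gene lists in each of the 12 control and 12 xylose muscle libraries; points are libraries, bars are medians, the diamond is xylose replicate 7 and the square xylose replicate 12. Xylose replicate 7 has the lowest muscle marker share, 10.8%, and the highest glycolysis and hepatocyte shares, 15.3% and 0.729%.

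Whether the muscle contrast differed between the diets turned on 1 library. In a fit of the 8 groups of tissue and diet, 10 genes (0.0869%) differed between the diets, 575 at an unadjusted p under 0.05, and 41 (0.356%) were higher with xylose within muscle and none lower. Without xylose replicate 7 both counts were 0. At an unadjusted p under 0.05 in edgeR there were then 319 and 792 genes of 11521, beside 575 and 774 of 11511 with that library. Such unadjusted counts include genes that pass by chance. In all 41 genes that library had the highest level of the 24, and 40 of the 41 had their highest tissue mean in liver. GJB1, a gap junction protein of hepatocytes, had 414 scaled CPM in xylose replicate 7 and 4.09 to 13.1 in the other 23 muscle libraries. PROC had 1130.5 there and 10.3 to 35.3 in the others. These 2 values were 72.4% and 45.5% of the mean liver level. The 17 tested hepatocyte genes stood in that library at 0.987% to 16.4% of their liver level, with a median of 5.25%, against a median of 0.691% at the median of the other 23. Their share of its counts was 0.729%, against 0.0842% to 0.209% in the others. The part of liver RNA in these diet calls was not tested beyond these values. The tissue contrast did not turn on it: without xylose replicate 7, 9549 genes passed.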

How the data were processed

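Longissimus dorsi RNA and that of liver, kidney cortex and jejunum mucosa was sequenced with a QuantSeq 3′ protocol, per the labels' protocols. The deposited values are raw read counts per Ensembl gene identifier, 1 file per library with 25880 genes. The submitters' processing notes list the tools STAR and featureCounts, with no version, while the deposited files' names carry htseq, so the counter used is uncertain. Genome build, annotation release and strand setting: not given in the sources used here. No strand being stated, genes that overlap or lie antisense to each other cannot be told apart.

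Of 96 files 90 are recorded under a sample whose title is not in the file's name, 48 of them under another tissue. Files were assigned by title, and 6 libraries under 1000000 counts (5 jejunum, 1 liver) were left out. Gene symbols came from a supplied table of Ensembl identifiers, which matched 14857 genes. Kept libraries held 1044588 to 6942566 counts. No pair of files agreed within sampling noise.

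Genes were filtered by filterByExpr and tested with edgeR 4.0.16 (R 4.3.3): TMM scaling, a quasi-likelihood F test, tissue with lane as a term, and Benjamini-Hochberg adjustment over all 11511 tested genes at 0.05. The standard error of a log2 fold change was taken from the F statistic. The diet question used a fit of the 8 groups of tissue and diet. Scripts were tested on simulated data. DESeq2 1.42.0, other scalings, other filters, single lanes, a block by plate position, all 96 libraries and the recorded assignment were tried as alternatives, and a fit without xylose replicates 7 and 12 was added after seeing the data. Named genes were the 15 with the highest fold change among genes highest in muscle at 100 CPM or more, the 10 most abundant, the 10 with the deepest fall, the 10 most variable, the 5 markers and up to 6 members of each list, each with a symbol. Some of these genes are not reported here. Genes outside that rule (members of isoenzyme pairs, the genes of the diet calls and those without a symbol) were chosen after their values were seen. The members and lists were chosen with earlier results of these data known.

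The labels do not tie plate positions to animals, and same-numbered positions were not treated as pairs in the main fit. Between muscle and jejunum, kidney and liver the median correlation of same-position deviations was 0.083, 0.106 and 0.155. Of these pairs 8 of 19, 12 of 24 and 15 of 23 exceeded 0.1. At other positions of the same lane and diet the medians were -0.015, -0.0080 and 0.016. The muscle library correlated most with its own position in 11 of 19, 8 of 24 and 14 of 23 pairs. Few libraries share tissue, lane and diet, so some pairs would rank first by chance, and how many was not computed. In each tissue the same-position median was above the median at other positions. In the labels a plate column of a lane holds the same diet in every tissue. Whether a position holds tissues of the same animal was not tested, and the main fit ignores any such pairing.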

Additional observations from a re-analysis of the deposited data

Results flagged for a closer look

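The muscle contrast differed between the diets in 10 genes by a test of the interaction, and in each of them xylose replicate 7 had the highest level of the 24 muscle libraries. The interaction, as the log2 fold change of muscle against the other tissues on xylose minus that on control, was 3.03 for GJB1, 2.73 for TFR2, 2.47 for C8B, 2.43 for PROC, 2.41 for HSD17B2, 2.32 for FETUB and 2.22 for ASGR2. It was 2.55 for ENSSSCG00000024252 and 1.94 for ENSSSCG00000028203, which have no symbol in the table used, and 1.17 for LIMK1. The adjusted p ran from 0.00082 to 0.0481 in edgeR. Of these genes, 9 had their highest tissue mean in liver, LIMK1 being the exception. TFR2, the second transferrin receptor, had 192 scaled CPM in xylose replicate 7 and 1.03 to 8.21 in the other 23 muscle libraries. ASGR2, a subunit of the asialoglycoprotein receptor of hepatocytes, had 277 against 2.92 to 11.4. Without xylose replicate 7 no gene passed, the smallest adjusted p was 0.618, and 319 genes had an unadjusted p under 0.05 in edgeR.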

How the results depend on the processing

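The 9507 calls became 8458 to 11955 over the alternatives. Library totals without scaling moved the counts most, to 1797 higher and 8597 lower, 876 above each tissue and 5247 below each, with a median over all genes lower by 1.04 on the log2 scale. Under that setting 12 named genes changed sign: ATP6 to -0.46, COX3 to -0.47, PRKAR1A to -0.31, SLC37A4 to -0.15, TBC1D4 to -0.14, HADHA to -0.58, SDHA to -0.96, CYTB to -0.055, CD163 to -0.996, ALAS2 to -0.75, HBB to -0.11 and PSMA1 to -0.16. Over 234 named genes and 14 alternatives, 3216 of 3272 values kept their direction and their side of the threshold. The replicate block by plate position gave 9589 calls, 4144 higher and 5445 lower, and moved no count by over 1.5 times. Under that block MYL4 lost its call (0.50, adjusted p = 0.218), and LRP4 (-0.46, adjusted p = 0.0391) and ENSSSCG00000024252 (-1.73, adjusted p = 9.92e-10) passed as lower. In 11 of 19 jejunum, 8 of 24 kidney and 14 of 23 liver pairs the muscle library correlated most with its own position. The comparison was with the other libraries of that tissue in the same lane and diet, which are few. How many pairs would rank first by chance was not computed.

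The diet results moved most. The interaction gave 10 genes, but 45 with DESeq2, 0 without xylose replicate 7 and 0 without xylose replicates 7 and 12, where 354 genes had an unadjusted p under 0.05. The 41 genes higher with xylose in muscle became 114 with DESeq2, 0 without xylose replicate 7 and 0 without both libraries, with 982 at an unadjusted p under 0.05. Leaving out every library in turn was not done, since each muscle group has 12. Depth limits genes of low count, and intervals for single libraries cover counting error only.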

Other observations

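Some genes listed as markers of other cells were also high in muscle. DES, desmin, the intermediate filament of both striated and smooth muscle, had 1923, 4266 and 7178 scaled CPM as lowest, median and highest and at most 60.2 elsewhere (7.29 ± 0.12 on the log2 scale, adjusted p = 7.25e-74 in edgeR). CNN1, calponin of smooth muscle, had 26.9, 66.4 and 236 against at most 11.6 (4.95 ± 0.19, adjusted p = 9.87e-44). GPD1, glycerol 3-phosphate dehydrogenase, listed with adipocytes but also part of the glycerol phosphate shuttle of fast fibres, had 1414, 1759.8 and 2914 against at most 332 (3.98 ± 0.09, adjusted p = 4.01e-61). Its span was far narrower than that of ADIPOQ, from 1.36 to 181. PLIN4, a lipid droplet protein, ran from 28.6 through 57.0 to 83.9. CRYAB, a small heat shock protein that binds desmin, had 389.5, 856 and 1853 against at most 366 (4.33 ± 0.13, adjusted p = 6.70e-51). All 5 were above every other library.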
